A study of Vitis vinifera with 2 samples.

Results

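Chromosome 13 of grapevine (Vitis vinifera) carried 4826 of the 89597 siRNA clusters found in leaf and 13284 of the 227847 found in embryogenic callus (EC). A cluster is a stretch of the genome onto which small RNA reads mapped next to each other, and its DicerCall is the predominant fragment size among them, or N where too small a share of its reads lay in the Dicer size range. All clusters of the assembled chromosome were included, with coordinates on the PN40024 12X genome counted from 1. The chromosome and its 20 to 23 Mb region were chosen by their numbers of 21 nt clusters in these same lists. The contrasts in 21 nt numbers between the region and the rest, and with other chromosomes, are therefore a description and are not tested.

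Both libraries came from cv. 'Chardonnay'. The leaf library was made from young leaves and the EC library from proliferating callus that had been started from anthers of the same vines and kept in the dark, with 5 leaves or 3 Petri dishes pooled per sample. Such callus consists of cultured cells that have lost their differentiated state and can give rise to embryos. There was 1 library per tissue, reads per cluster were unknown and no correction for depth was made, so differences between leaf and EC have no replicate check and cannot be told apart from a difference in sequencing. By the study's read counts, more small RNA reads mapped to the genome in EC than in leaf, after more miRNA reads had been removed from leaf. Cluster positions gave no marker by which the tissue labels could be checked. Intervals are 95% and cover the counting of clusters only.

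In plants, 24 nt siRNAs are cut by DCL3 from double-stranded copies of RNA Pol IV transcripts and guide DNA methylation to transposable elements. In contrast, 21 nt siRNAs are cut mainly by DCL4, take part in the degradation of transcripts, and can arise in phased series along a transcript that has been made double-stranded by RDR6. Clusters of 22 nt are associated with DCL2. ShortStack gives a cluster no strand where its reads do not come predominantly from either strand.

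The chromosome as a whole had more 24 nt clusters and fewer 21 nt clusters in EC. Clusters of 24 nt numbered 2711 in leaf and 10285 in EC, an EC/leaf ratio of 3.79 (3.64 to 3.96). Those of 21 nt numbered 542 and 288, a ratio of 0.531 (0.459 to 0.614), and their covered length was 100.9 kb in leaf and 26.6 kb in EC. Over the other 18 chromosomes together the ratio was 3.19 (3.16 to 3.22) for 24 nt and 0.746 (0.715 to 0.779) for 21 nt clusters. Chromosome 13 ranked first of 19 in the share of leaf clusters that were of 21 nt, at 11.2%, where the others ranged from 3.94% to 9.45%. In EC that share, 2.17%, lay within the range of 1.51% to 2.44% of the others. Per Mb it ranked first in both tissues, with 22.2 in leaf, where the others reached at most 16.5, and 11.8 in EC, where they reached at most 10.96.

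In leaf 21 nt clusters were densest near the far end of the chromosome. The region from 20 to 23 Mb, 12.3% of the chromosome's length, held 246 of the 542 leaf 21 nt clusters, which was 45.4% (41.1 to 49.7%). Their density was 82 per Mb in the region and 13.8 per Mb in the rest. The same region held 79 of the 288 EC 21 nt clusters, or 27.4% (22.4 to 33.0%), at 26.3 per Mb against 9.77 per Mb. Without the window from 21 to 22 Mb the density in the region was 4.08 times that in the rest in leaf and 1.59 times in EC, instead of 5.93 and 2.70 times. By contrast, 24 nt clusters of EC were as dense in the region as outside it, with 423.7 and 421.4 per Mb. In leaf they were somewhat denser in the region, with 149.3 and 105.8 per Mb.

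Individual windows of 1 Mb showed how steep this was. From 20 to 21 Mb leaf had 55 clusters of 21 nt and EC had 16. The window from 21 to 22 Mb held 133 and 48, and that from 22 to 23 Mb held 58 and 15. All 3 were richer in leaf. Just outside the region, 19 to 20 Mb held 46 in leaf and 8 in EC, and 23 to 24 Mb held 29 and 8. The region thus had no sharp border, and the rise in leaf began at 19 Mb, since the window from 18 to 19 Mb held only 3 in leaf and 11 in EC. At a finer scale, the 100 kb just before 20 Mb held 8 in leaf and 3 in EC and the 100 kb just after it 4 and 0, and those on either side of 23 Mb held 2 and 0 inside and 2 and 1 outside. The incomplete last window, from 24 Mb to the end at 24.39 Mb, held 27 and 5.

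**Figure D1:**
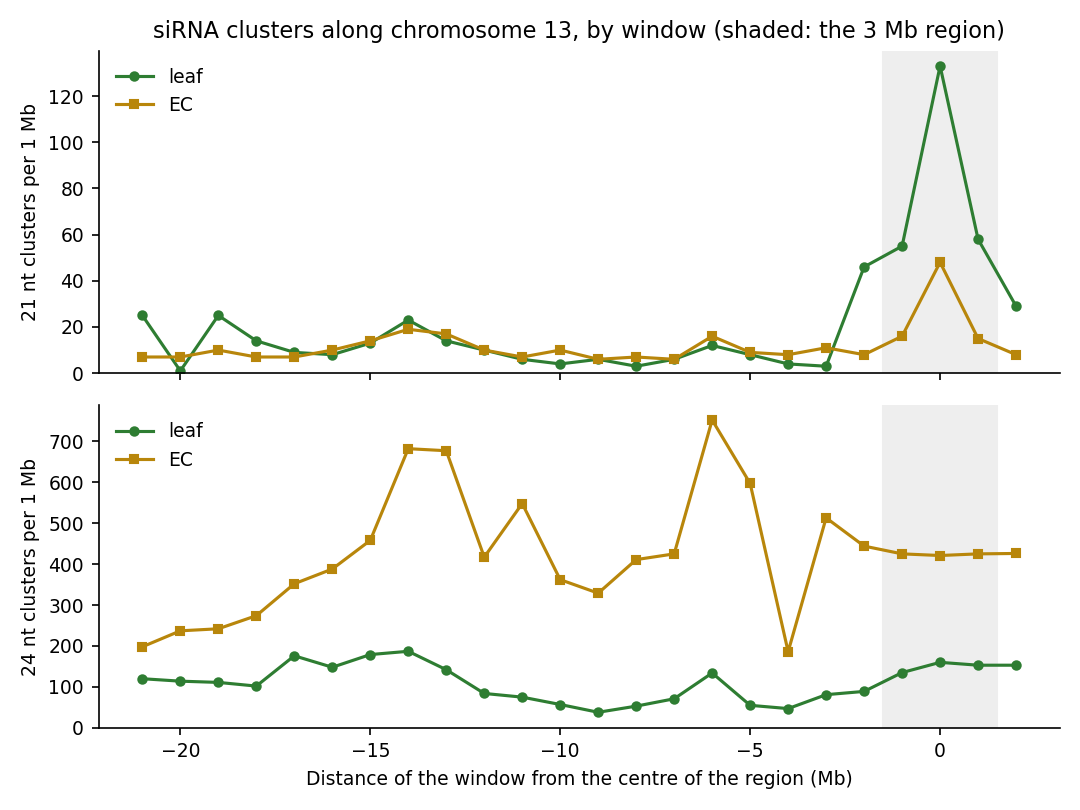
Numbers of 21 nt clusters (upper panel) and 24 nt clusters (lower panel) per complete 1 Mb window of chromosome 13 in leaf and EC, against the distance of the window from the centre of the 20 to 23 Mb region, which is shaded. In the upper panel leaf reaches 133 and EC 48 in the central window, whereas the EC line of the lower panel stays between 421 and 425 across the region.

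Away from this end the tissues had nearly equal numbers of 21 nt clusters. Between 0 and 19 Mb leaf had 194 and EC 188, a ratio of 0.969 (0.789 to 1.19), while from 19 Mb to the end they had 348 and 100, a ratio of 0.287 (0.228 to 0.360). This division was made after the windows had been seen. In 10 of the 24 complete windows EC had fewer 21 nt clusters than leaf, in 11 it had more and in 3 the numbers were equal. Over all 420 windows of the 19 chromosomes EC had fewer in 57.4%. The share of windows with fewer 21 nt clusters in EC was thus not above the background on the chromosome with the lowest overall ratio. The windows from 0 to 19 Mb held a median of 8 clusters in leaf (range 1 to 25) and 9 in EC (6 to 19). The 2 richest of these in leaf, each with 25, lay at 0 to 1 Mb and 2 to 3 Mb, and held 7 and 10 in EC.

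Clusters of 24 nt followed another course. They were more numerous in EC in each of the 24 windows. EC also had more on each of the other 18 chromosomes, with ratios from 2.05 to 4.43. The share over all 420 windows was not counted, so the count is not read as particular to chromosome 13. On chromosome 13 the ratio was lowest at the start, with 120 in leaf and 198 in EC at 0 to 1 Mb (ratio 1.65, 1.31 to 2.09). It was highest in the interior, with 55 and 597 at 16 to 17 Mb (ratio 10.9, 8.23 to 14.6). The largest EC number, 752, was at 15 to 16 Mb. Within the region the 3 windows had 135, 160 and 153 clusters of 24 nt in leaf and 425, 421 and 425 in EC, so EC was almost level there while its 21 nt numbers went from 16 to 48 and back to 15.

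Across the 24 windows, 21 nt numbers in leaf and EC had a Pearson's r of 0.84 and a Spearman's rho of 0.48. Without the 2 windows farthest from the leaf median, r was 0.33 over 22 windows. Outside the region, over 21 windows, r was 0.15 and rho 0.28, so that the relation rested largely on the region. Windows are neighbours on the same chromosome and share the libraries, and the values are a description.

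The region had a higher 21 nt share than the rest in both tissues, and a lower 24 nt share in leaf. In leaf 24.95% (22.3 to 27.8%) of its 986 clusters were of 21 nt and 45.4% (42.3 to 48.6%) of 24 nt, against 7.71% (6.88 to 8.60%) and 58.9% (57.4 to 60.5%) of the 3840 clusters elsewhere. In EC, 4.84% (3.851 to 5.997%) of 1632 clusters in the region and 1.79% (1.56 to 2.05%) of 11652 elsewhere were of 21 nt. The 24 nt share of EC was 77.9% and 77.4%. The region thus held 1.82 times as many 24 nt as 21 nt clusters in leaf and 16.1 times as many in EC, compared with 7.65 and 43.1 times in the rest.

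**Figure D2:**
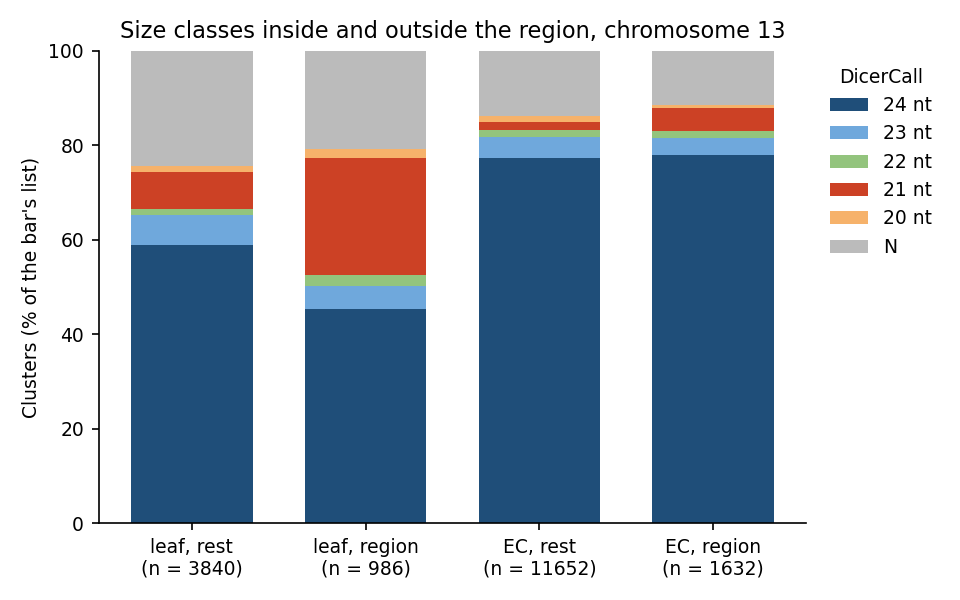
Share of each DicerCall among the clusters of leaf and EC, in the 20 to 23 Mb region and in the rest of chromosome 13, with the number of clusters under each bar. The 21 nt part is widest in the leaf bar of the region, at 24.95%, and the 24 nt parts of the EC bars are nearly the same height, at 77.9% and 77.4%.

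The EC/leaf ratio was lower in the region than in the rest in each of the 6 size classes. For 21 nt it was 0.321 (0.246 to 0.415) in the region and 0.706 (0.589 to 0.846) in the rest. Once 21 nt clusters up to 500 bp apart had been joined, it was 0.553 (0.393 to 0.772) and 0.947 (0.775 to 1.16). For 24 nt it was 2.84 (2.55 to 3.17) and 3.98 (3.803 to 4.173). Clusters of 22 nt in the region numbered 22 in leaf and 24 in EC, or 1.09 times as many (0.586 to 2.04), whereas in the rest they numbered 53 and 173, a ratio of 3.26 (2.39 to 4.53). Those of 20 nt numbered 17 and 13 in the region and 48 and 134 elsewhere, and those of 23 nt 47 and 59 in the region and 241 and 507 elsewhere. Clusters without a size call numbered 206 and 186 in the region, a ratio of 0.903 (0.736 to 1.11), and 939 and 1615 elsewhere, a ratio of 1.72 (1.59 to 1.87).

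**Figure D3:**
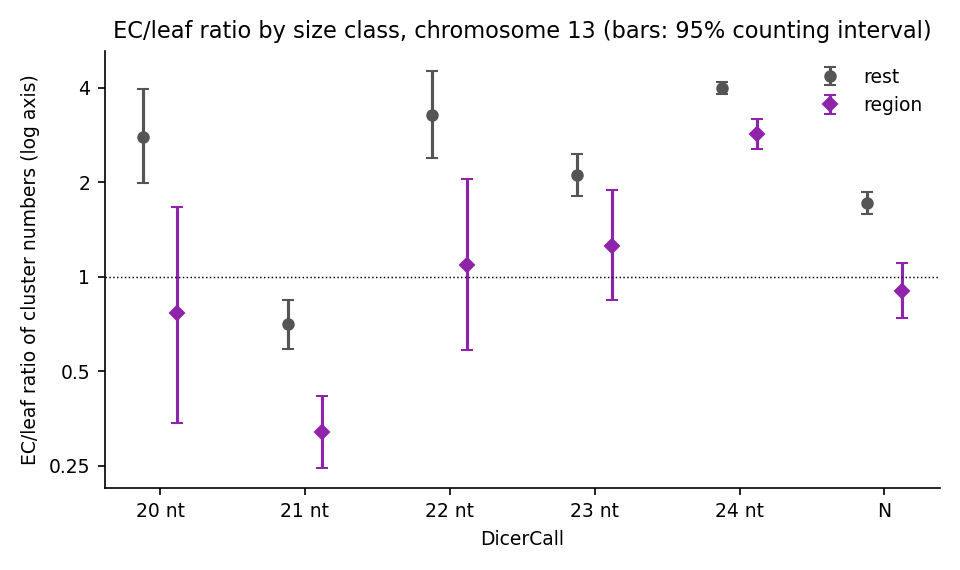
EC/leaf ratio of cluster numbers by DicerCall in the 20 to 23 Mb region (diamonds) and in the rest of chromosome 13 (circles), on a log axis, with 95% intervals that cover counting only. The dotted line marks equal numbers, and the lowest point is that of 21 nt clusters in the region, at 0.321.

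Within the region 21 nt clusters were packed into small stretches. Of its 30 windows of 100 kb, 11 held at least 10 leaf 21 nt clusters and 4 held none, and the 10 richest held 183 of the 246. The richest was 21500001 to 21600000, with 28 in leaf and 14 in EC. It was followed by 21100001 to 21200000 with 26 and 7, 21300001 to 21400000 with 25 and 12, and 20500001 to 20600000 with 21 and 4. The fifth, 24100001 to 24200000, lay outside the region and held 20 and 3. EC had fewer 21 nt clusters than leaf in 22 of the 30 windows, more in 2 and equal numbers in 6. The region had been chosen by its 21 nt numbers, and this count was not made for the 213 windows elsewhere. The median per window was 5.5 in leaf and 1.5 in EC in the region, and 1 in both tissues elsewhere. In EC the same window, 21500001 to 21600000, ranked first, and the window 21300001 to 21400000 ranked second. The next 3 in EC held 7 each and included 15400001 to 15500000, where leaf had 10.

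The window 21300001 to 21400000 also carried many 24 nt clusters in EC, with 108, against 23 in leaf. It contained the longest 24 nt cluster of EC on the chromosome, of 2239 bp (21394039 to 21396277), of which leaf clusters covered 8.80%. In leaf it contained a 21 nt cluster of 2132 bp (21350047 to 21352178) that met no EC cluster.

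Neighbouring 21 nt clusters of leaf lay a median of 305 bp apart in the region and 13220 bp apart elsewhere. In EC these medians were 9046 bp and 66804 bp. When 21 nt clusters at most 5 kb apart were joined into runs, 160 of the 246 leaf clusters of the region (65.0%) belonged to 22 runs of 5 or more clusters, and 100 of the 296 elsewhere (33.8%) to 14 such runs. EC had 4 such runs in the region with 24 clusters and 1 elsewhere with 6. Clusters of 24 nt were less unlike in spacing, with medians of 2327 bp in the region and 3456 bp elsewhere in leaf, and 554 bp and 653.5 bp in EC. Gaps and runs both depend on the density of 21 nt clusters, by whose numbers the region was chosen. Spacing beyond that density was not tested.

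Among the runs of leaf with most clusters, that at 22113944 to 22122216 joined 11 clusters over 8.27 kb. Of these, 5 were on the plus strand, 2 on the minus strand and 4 had none, and EC had 2 clusters there, both of 24 nt. A run of 11 at 21156896 to 21160100 and runs of 9 at 24106308 to 24113323, 458570 to 467320 and 19379178 to 19382201 contained no EC cluster. Other runs persisted. At 7493849 to 7499026, outside the region, leaf had 9 clusters and EC had 6, all of 21 nt. In the region the longest runs of EC, each of 7 clusters, lay at 21363577 to 21366493 and 22093179 to 22097601, and leaf had 4 and 6 clusters of 21 nt there.

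Leaf 21 nt clusters were also longer in the region. The median was 112.5 bp (quartiles 42 and 254 bp) in the region and 79 bp (31 and 124.5 bp) in the rest, and in EC it was 96 bp (48 and 134 bp) and 58 bp (32 and 97 bp). On the other 18 chromosomes the median was 63 bp in leaf and 64 bp in EC. For 24 nt clusters the medians were 69 and 68 bp in leaf and 105 and 97 bp in EC, so length separated the region from the rest far less in this class.

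**Figure D4:**
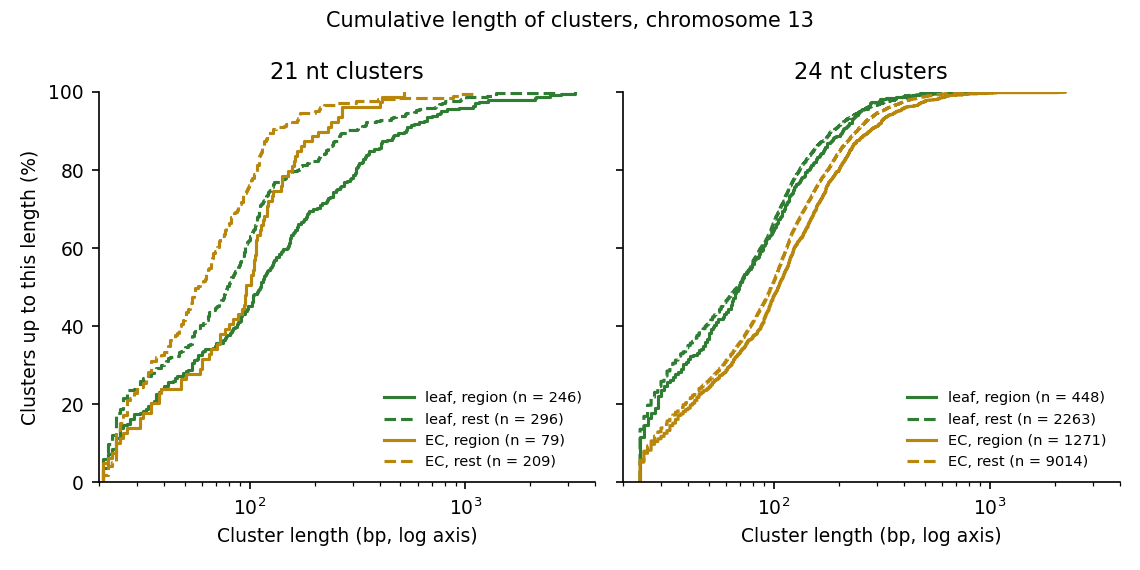
Cumulative share of 21 nt clusters (left) and 24 nt clusters (right) up to a given length in bp, on a log axis, for leaf and EC in the 20 to 23 Mb region (solid lines) and in the rest of chromosome 13 (dashed lines). Among 21 nt clusters the leaf line of the region lies furthest to the right from its median of 112.5 bp upwards, and among 24 nt clusters both EC lines lie to the right of both leaf lines.

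Long clusters of leaf in the region were nearly all of 21 nt. Of 28 leaf clusters of at least 500 bp there, 26 (92.9%, 76.5 to 99.1%) were of 21 nt and 1 was of 24 nt, compared with 18 of 21 nt and 15 of 24 nt among 37 elsewhere. In EC the region had 33 clusters of this length, 32 of them of 24 nt and 1 of 21 nt. On the whole chromosome 8.12% of leaf 21 nt clusters reached 500 bp, against 2.39% on the other 18 chromosomes. In EC these shares were 1.39% and 1.49%.

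The 5 longest 21 nt clusters of leaf had little or no counterpart in EC. The cluster of 3200 bp at 20331479 to 20334678 met 2 EC clusters of 21 nt that covered 3.28% of it. That of 2766 bp at 21759493 to 21762258, that of 2614 bp at 24215500 to 24218113 and the cluster of 2132 bp met none, and that of 2452 bp at 20361456 to 20363907 met 1 of 21 nt and 1 of 24 nt that covered 5.91%. The longest of EC were shorter and lay within leaf clusters of the same size class. They measured 1098 bp (23665100 to 23666197), 954 bp (15492396 to 15493349), 874 bp (7495467 to 7496340), 520 bp (21081161 to 21081680) and 494 bp (15496759 to 15497252), and a leaf 21 nt cluster covered at least 98.2% of each.

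In the 24 nt class the longest clusters were those of EC. The longest of leaf, of 1275 bp (725405 to 726679), 1210 bp (14590646 to 14591855) and 908 bp (949857 to 950764), were covered to 35.5%, 78.8% and 28.7% by EC clusters. In EC the next longest after that of 2239 bp, of 2236 bp (15296903 to 15299138) and 2067 bp (22581238 to 22583304), were covered to 1.12% and 0% by leaf clusters. The longest clusters without a size call were shared. That of leaf measured 2826 bp (11911509 to 11914334) and that of EC 2823 bp (11911501 to 11914323), both on the minus strand, with 2815 bp in common.

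Clusters of 22 nt were short in both tissues. The longest in leaf measured 250 bp (13676470 to 13676719) and was covered to 92.4% by an EC cluster of 24 nt. The next, of 166 bp (22116110 to 22116275) and 162 bp (20651182 to 20651343), lay in the region and met no EC cluster. In EC the longest measured 242 bp (9225262 to 9225503), 240 bp (14284150 to 14284389) and 179 bp (13675542 to 13675720). Only the last of these met a leaf cluster, of 24 nt.

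Most 21 nt clusters of the region had no strand assigned. In leaf this was so for 61.0% (54.6 to 67.1%) of them, against 49.7% (43.8 to 55.5%) in the rest, and in EC for 65.8% (54.3 to 76.1%) and 49.8% (42.8 to 56.7%). Among 24 nt clusters the shares were 45.8% and 44.3% in leaf and 56.5% and 55.1% in EC. Length moved with these shares. In leaf, 16.4% of 21 nt clusters up to 30 bp had no strand, 47.5% of those from 31 to 99 bp, 73.4% of those from 100 to under 500 bp and 44 of 44 from 500 bp upwards. In the same length order, below 500 bp, the leaf shares were 20.9%, 44.1% and 78.0% in the region and 13.7%, 49.55% and 68.1% elsewhere. In EC they were 36.4% (of 11 clusters), 65.5% and 73.7% in the region and 21.6%, 52.8% and 70.2% elsewhere. The part of length in the contrast between region and rest was not tested. Of the leaf 21 nt clusters with a strand in the region, 53 were on the plus and 43 on the minus strand, and in EC 14 and 13. Where neighbouring leaf 21 nt clusters in the region lay within 5 kb and both had a strand, it was the same in 17 of 22 pairs (77.3%, 54.6 to 92.2%), and in the rest in 12 of 18 (66.7%, 41.0 to 86.7%).

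Over all size classes together, the clusters of the tissues overlapped to different degrees in the region and outside it. An EC cluster overlapped 39.7% (36.6 to 42.8%) of the leaf clusters in the region and 46.8% (45.2 to 48.4%) of those in the rest. Among leaf 24 nt clusters alone the shares were 54.7% and 53.0%, and among those of 21 nt 21.1% and 27.4%. Clusters of 21 nt made up 24.95% of the leaf list in the region and 7.71% in the rest. The part of this mix in the lower share of the region was not tested. EC clusters covered 6.94% of the sequence of the region and 6.21% of the rest. Seen from EC, a leaf cluster overlapped 23.8% (21.7 to 25.9%) in the region and 15.3% (14.6 to 16.0%) in the rest, where leaf clusters covered 4.10% and 1.64% of the sequence. Among EC 24 nt clusters alone the shares were 22.5% and 15.8%.

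For 21 nt clusters of EC, overlap with leaf was far more frequent in the region than in the rest. In the region 54 of 79 (68.4%, 56.9 to 78.4%) met a leaf cluster, and 45 of these 54 met one of 21 nt. In the rest 39 of 209 (18.7%, 13.6 to 24.6%) met a leaf cluster, in 24 cases one of 21 nt. Over the other 18 chromosomes the share with a leaf cluster was 20.1% (18.8 to 21.4%). In contrast, only 52 of the 246 leaf 21 nt clusters of the region (21.1%, 16.2 to 26.8%) met an EC cluster, as did 81 of 296 elsewhere (27.4%, 22.4 to 32.8%) and 24.8% on the other 18 chromosomes. Leaf clusters covered 4.10% of the sequence in the region and 1.64% in the rest, and those of 21 nt alone 1.93% and 0.202%. The region was chosen by its 21 nt numbers, and the part of this coverage in the higher EC share was not tested.

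Partners of leaf 21 nt clusters also differed in size class. In the region 38 of the 52 partners were of 21 nt and 6 of 24 nt, while in the rest 19 of 81 were of 21 nt and 44 of 24 nt. On the other 18 chromosomes 336 of 1224 partners were of 21 nt. EC clusters of 21 nt covered 0.293% of the region and 0.0834% of the rest, and those of 24 nt 5.93% and 5.14%. The part of this coverage in the partners' classes was not tested. Of the 50 pairs called 21 nt in leaf and 24 nt in EC, 44 lay outside the region. So did 296 of the 542 leaf clusters of 21 nt and 9014 of the 10285 EC clusters of 24 nt. An EC 24 nt cluster was thus the partner of 2.44% (0.900 to 5.23%) of the leaf 21 nt clusters in the region. In the rest it was the partner of 14.9% (11.0 to 19.4%). Among leaf 24 nt clusters, 54.7% (50.0 to 59.4%) in the region and 53.0% (51.0 to 55.1%) in the rest met an EC cluster, and 217 of 245 and 1033 of 1200 partners were of 24 nt. On the other 18 chromosomes 45.6% (45.1 to 46.0%) of leaf 24 nt clusters met an EC cluster.

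**Figure D5:**
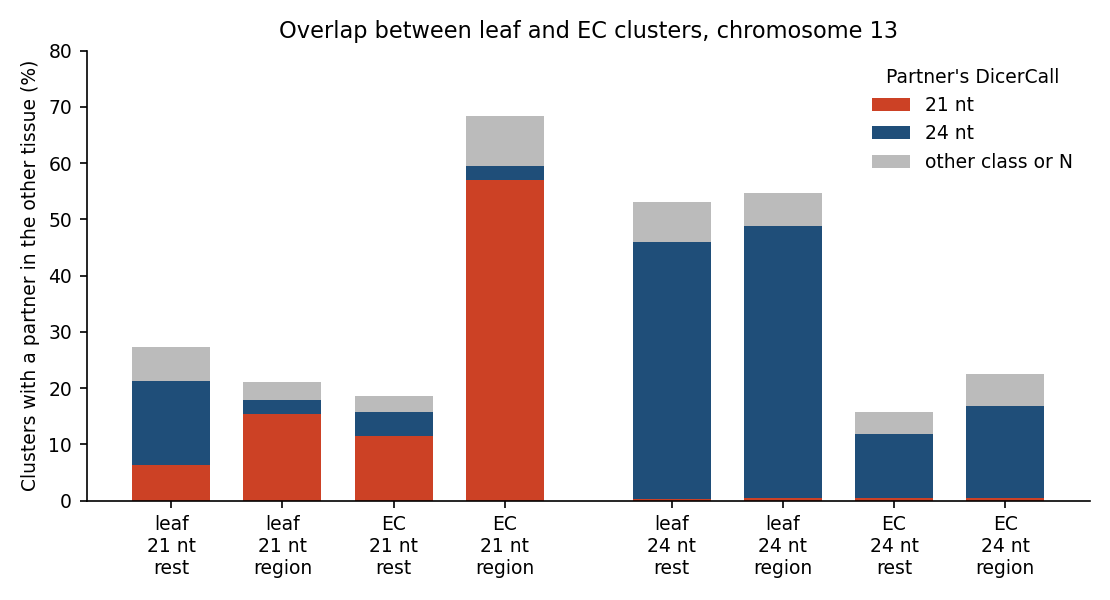
Share of 21 nt clusters (left bars) and 24 nt clusters (right bars) of leaf and EC that overlap a cluster of the other tissue, in the 20 to 23 Mb region and in the rest of chromosome 13, divided by the partner's DicerCall. The tallest bar is that of EC 21 nt clusters in the region, at 68.4%, and most of it is partners of 21 nt.

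Where both tissues had a 21 nt cluster, the leaf cluster was usually the longer. This was so in 44 of 57 such pairs on the chromosome, with medians of 336 bp in leaf and 107 bp in EC, and the strand was the same in all 10 pairs in which both had been assigned a strand. The 3 pairs of longest overlap lay outside the region, at 23665082 to 23666459 (1098 bp in common), 15492410 to 15493362 (940 bp) and 7495483 to 7496873 (858 bp) in leaf coordinates. In the 50 pairs of a leaf 21 nt and an EC 24 nt cluster, the latter was the longer in 33. Those of longest overlap lay at 23678007 to 23678617 (294 bp in common), 10263702 to 10264426 (245 bp) and 10264536 to 10264867 (176 bp), the last 2 being neighbours. Only 10 pairs were called 24 nt in leaf and 21 nt in EC, led by leaf clusters at 22824358 to 22824484 (126 bp), 8220777 to 8220861 (85 bp) and 15404813 to 15405113 (68 bp).

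Longer leaf 21 nt clusters met EC clusters more often, which a longer cluster does more readily where 1 bp suffices. The part of their length covered by EC clusters differed less between lengths in the region than in the rest. In the region 3 of 43 clusters up to 30 bp met an EC cluster, as did 9 of 68 from 31 to 99 bp. From 100 to under 500 bp 25 of 109 did so, and from 500 bp upwards 15 of 26. EC clusters covered 7.03%, 8.22%, 11.6% and 10.2% of the length in these groups. Outside the region 10 of 18 of the longest met an EC cluster, and 28.3% of their length was covered. There the covered part was 23.2% up to 30 bp, 18.6% from 31 to 99 bp and 10.1% from 100 to under 500 bp.

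Compared with the last 20% of the length of each other chromosome, that of chromosome 13 was the richest in leaf 21 nt clusters, with 64.6 per Mb against a range of 7.01 to 35.1 per Mb. Its EC/leaf ratio for 21 nt clusters was 0.308, the second lowest of the 19, where the others ranged from 0.244 to 1.93 with a median of 0.668. Its 24 nt ratio of 2.93 was close to their median of 3.12. The low 21 nt ratio was therefore not particular to this chromosome end, whereas the density of leaf 21 nt clusters was the highest of the 19. This end contains the region chosen by its 21 nt numbers, so its rank in density is a description only.

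ShortStack marked 2 leaf clusters of chromosome 13 as miRNA loci, both outside the region and although known miRNA reads had been taken out. The first, of 22 nt and 76 bp on the plus strand (4265142 to 4265217), met no EC cluster. The second, of 21 nt and 108 bp on the minus strand (6181373 to 6181480), met an unmarked EC cluster of 21 nt (6181378 to 6181398). In EC 0 of 13284 clusters had the mark, which allows a share of up to 0.0226% when 3 counts are taken as the limit for a count of 0.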

How the data were processed

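Small RNA of 18 to 35 nt was sequenced from 1 leaf and 1 EC library. Per the study's methods, the authors trimmed and size filtered the reads, removed tRNA, rRNA and miRNA reads, and used ShortStack to map the rest to the PN40024 12X genome and to join them into clusters. ShortStack places multi-mapping reads by the uniquely mapping reads nearby. The deposited values are the start, end, strand and DicerCall of each cluster. The score column was empty, so the depth per cluster is unknown. The coverage minimum and padding set in ShortStack were not given in the sources used here. Neither list was corrected for sequencing depth, on which the number of clusters found depends.

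All clusters on chr13 were used, and those of chr13_random (530 in leaf, 2172 in EC) were left out. Clusters were placed by their midpoint. Overlap required at least 1 bp, and the partner was the cluster of longest overlap. Intervals of 95% were exact binomial (Clopper-Pearson). They cover the counting of clusters only, although neighbouring clusters are not independent. With 1 library per tissue no test between tissues was made. The chromosome, the region and all choices were made with earlier results of these data known. Clusters were named by rank of length, windows of 100 kb by rank of 21 nt clusters. The joining of 21 nt clusters into runs, the comparison of the last 20% of each chromosome and the division at 19 Mb were added later. Alternatives changed the minimum length, merging, placement, overlap, region and use of clusters without a DicerCall. The functions were tested on simulated data. Python 3.11.15, pandas 2.3.3, numpy 2.4.6 and scipy 1.17.1 were used. An annotation or sequence of the 12X build was not used here, so genes, repeats and bases under the clusters are not given.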

Additional observations from a re-analysis of the deposited data

How the results depend on the processing

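No paired analysis was possible because leaf and EC were 1 library each, and for the same reason no replicate could be left out. Placing clusters by their start left all 45 values within their intervals, and no EC/leaf ratio or density ratio passed to the other side of 1. In each alternative the region kept its place above or below the rest for the EC/leaf ratios of 21 nt and 24 nt clusters, for the 21 nt shares, lengths and strand shares, and for the overlap of all clusters and of 21 nt clusters in both directions. The order was turned for the 24 nt share of EC in 1 of 8 alternatives, for the median length of leaf 24 nt clusters in 1 of 2 and for the overlap of leaf 24 nt clusters in 2 of 6. The cause of the changes below was not tested.

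Among clusters of at least 31 bp the EC/leaf ratio on the chromosome was 3.16 for all and 4.40 for 24 nt clusters, and for 24 nt it was 3.28 in the region and 4.62 in the rest. The median 21 nt length was then 140 bp in the region and 100 bp in the rest of leaf, and 73 bp in the rest of EC. Among clusters of at least 100 bp the ratios were 3.83 for all, 0.360 for 21 nt and 5.50 for 24 nt clusters. In the rest the 21 nt ratio was 0.446, and the 24 nt ratio was 4.22 in the region and 5.77 in the rest. The 21 nt share was 36.1% in the region and 9.36% in the rest of leaf and 0.955% in the rest of EC. The 21 nt density in the region over that in the rest, 5.93 in leaf and 2.70 in EC as reported, was 8.60 and 5.56. The share of 21 nt clusters without a strand was 82.2% in the region and 73.2% in the rest of leaf. In EC it was 74.4% (57.9 to 87.0%) in the region and 72.0% in the rest, nearer to each other than among clusters of all lengths. Overlap fell to 31.02% in the region and 40.8% in the rest for leaf, and to 15.2% and 9.40% for EC. An overlap of at least 50% of the cluster gave 29.0% and 36.1% for leaf and 13.4% and 8.10% for EC.

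When clusters of the same class within 500 bp were merged, the ratios were 2.17 for all, 0.816 for 21 nt and 2.67 for 24 nt clusters. The 21 nt ratio was 0.553 in the region and 0.947 in the rest, where the interval (0.775 to 1.16) included 1, and the 24 nt ratio was 1.92 and 2.81. The 21 nt share of leaf was 14.2% in the region and 6.395% in the rest, that of the rest of EC was 2.57%, and the leaf density ratio was 3.55. With covered length in place of number the ratios were 3.24 for all, 0.264 for 21 nt and 5.06 for 24 nt. In the region and the rest they were 0.152 and 0.414 for 21 nt and 4.18 and 5.24 for 24 nt, and the density ratios were 9.56 in leaf and 3.52 in EC.

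Leaving out clusters without a DicerCall raised the 21 nt share to 31.5% in the region and 10.2% in the rest of leaf and to 2.08% in the rest of EC. Without the window from 21 to 22 Mb the 21 nt share of the region was 19.4% in leaf and 2.87% in EC, the density ratios were 4.08 and 1.59, and 19.96% of EC clusters met a leaf cluster. A region of 19 to 24 Mb gave 21 nt shares of 21.7% in leaf and 3.48% in EC, 6.60% in the rest of leaf, an EC density ratio of 1.91 and a 21 nt ratio in the rest of 0.873. A region from 19 Mb to the end, added after the data had been seen, gave 22.1% and 3.49%, with 5.97% in the rest of leaf, an EC density ratio of 1.87, a 21 nt ratio in the rest of 0.969 and an overlap of 14.6% for the rest of EC. Depth limits all counts, since a cluster that was not called may have had too few reads.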
